A study of Mus musculus with 10 samples.

Results

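Open chromatin was compared between innate lymphoid cells (ILCs) of 2 mutant genotypes, RORgt-RORa-KO and RORgt-Tbet-KO, at every peak outside the Y chromosome. The comparison used 5 of the 10 libraries of the study and 36251 peaks, all of those tested. C57BL/6 mice had eaten tamoxifen for several weeks before ILCs were sorted from the lamina propria of their small intestine. Chromatin was read by ATAC-seq, which uses a transposase to cut and tag accessible DNA. All mice carried Id2creERT2+ and tdRFP+. RORgt-RORa-KO mice (n = 3 libraries) were in addition Roraf/f and RORgt-Tbet-KO mice (n = 2) Tbx21f/f, and both also carried the floxed allele that defines the RORgt-KO group. RORgt-KO mice had that allele alone (n = 2) and Control mice had no floxed allele named (n = 3). The RORgt-KO and Control libraries shared the spread estimate of the fit and are given as levels. Both compared genotypes thus shared the RORgt-KO deletion, the inducible Cre under Id2 and the red reporter, and differed in whether Rora or Tbx21 was floxed in addition. Id2 is active in all ILCs, so deletion was directed at every ILC subset and not at ILC3s alone. Libraries were biological replicates, and a library could hold the pooled intestines of 2 or 3 mice. The sources used here do not give age, sex, sort markers or the exons that are floxed.

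ILC3s of the gut make IL-17 and IL-22, whereas ILC1s make IFN-γ. RORα, encoded by Rora, is a nuclear receptor of the ROR family and is needed for ILC2s. T-bet, encoded by Tbx21, directs the type 1 programme of ILC1s and of NCR+ ILC3s, with IFN-γ production and expression of natural killer receptors. The comparison therefore set cells that still had the T-bet gene against cells that still had the RORα gene, both on the RORgt-KO background. In bulk ATAC-seq, a peak can be low because fewer cells of a type were sorted or because each cell is less open there, and these cannot be told apart.

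The motifs of these factors were looked for in the 300 bases around each RefSeq start site (250 before, 50 after; GRCm38.p6, the build of the peaks). Upstream stretches of 4 genes are shown because a peak over each start was called between the genotypes and they hold such motifs, although the call at the Ccl3 start (limma adjusted p = 0.0221) was lost under 7 of 17 alternatives. Capitals mark AGGTGTGA (T-box motif), AGGTCA (ROR motif) and TGTGGT (RUNX motif) or their reverse complements, and each line runs 5′ to 3′ along the gene and ends at the base before the start site. Nkg7 is at chr7:43436888-43437137 (plus strand) and Ccl3 at chr11:83649379-83649628 (minus strand). Il17f is at chr1:20784271-20784520 (minus strand) and Il23r at chr6:67491856-67492105 (minus strand).
Nkg7: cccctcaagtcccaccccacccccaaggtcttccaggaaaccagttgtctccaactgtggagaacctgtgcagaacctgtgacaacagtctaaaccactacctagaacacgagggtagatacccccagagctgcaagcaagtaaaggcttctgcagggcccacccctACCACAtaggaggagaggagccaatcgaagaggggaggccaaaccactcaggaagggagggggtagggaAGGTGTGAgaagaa
Ccl3: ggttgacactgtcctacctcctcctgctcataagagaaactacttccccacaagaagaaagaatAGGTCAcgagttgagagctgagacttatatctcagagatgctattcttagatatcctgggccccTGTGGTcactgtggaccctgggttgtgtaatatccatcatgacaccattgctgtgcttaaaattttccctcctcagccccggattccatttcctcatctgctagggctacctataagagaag
Il17f: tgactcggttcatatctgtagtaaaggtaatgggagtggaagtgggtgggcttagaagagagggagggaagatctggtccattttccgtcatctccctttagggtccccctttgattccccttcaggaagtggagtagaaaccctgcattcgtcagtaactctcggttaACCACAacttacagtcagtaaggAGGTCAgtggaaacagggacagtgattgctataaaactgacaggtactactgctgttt
Il23r: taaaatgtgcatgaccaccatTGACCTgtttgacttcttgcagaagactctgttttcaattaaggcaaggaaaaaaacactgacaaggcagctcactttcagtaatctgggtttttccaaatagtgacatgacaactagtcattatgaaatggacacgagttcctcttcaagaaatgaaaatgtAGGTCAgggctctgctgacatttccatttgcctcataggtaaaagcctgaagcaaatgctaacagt

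The values are log2 scaled reads, the authors' unit, and differences are RORgt-RORa-KO minus RORgt-Tbet-KO on that scale. A peak was called at a Benjamini-Hochberg adjusted p below 0.05 over all peaks in limma. Of 36251 peaks, 2733 were called (7.54%), 1383 of them higher (3.82%) and 1350 lower (3.72%) in RORgt-RORa-KO. The higher peaks had larger differences, with a median of 1.49 and 1143 of 1383 at 2-fold or more. The lower peaks had a median of -1.10 and 790 of 1350 at 2-fold or more. At 4-fold or more stood 337 of the higher and 96 of the lower peaks. The higher peaks had fewer reads (median 45.3, against 95.25 in the lower) and a larger median standard error (0.331, against 0.247). Of peaks with 25 reads or fewer per library, 3.35% were higher and 0.592% lower. Of those with 118.5 or more, 2.04% were higher and 5.87% lower. The part of reads in the larger differences was not tested. Called peaks lay nearest to 1715 of 13221 genes with a peak within 50 kb (13.0%), of which 778 had only higher peaks, 818 only lower peaks and 119 both. The median difference over all peaks was -0.02.

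Libraries held 2825693, 2271585 and 4733829 reads in peaks in RORgt-RORa-KO and 4580787 and 5047436 in RORgt-Tbet-KO. RORgt-RORa-KO replicates 1 and 2 were thus shallower than every RORgt-Tbet-KO library, and replicate 3 was of like depth. With replicate 3 alone on its side, 1077 peaks were called, 328 higher and 749 lower. With log2 depth as a covariate, 1063 were called. With the reads of every library thinned to equal depth, 2170 were called, 1304 higher and 866 lower, and 71.4% of the 2733 calls were among them. Leaving out RORgt-Tbet-KO replicate 1 left 967 called peaks and leaving out replicate 2 left 1032. The part of depth in single results was not tested.

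The targeted genes did not check the labels, because the floxed exons are not known. At Rora, 1 of 14 peaks was called. It was higher, at 7.44, 7.64 and 7.62 in RORgt-RORa-KO, against 6.22 and 6.71 in RORgt-Tbet-KO (difference 1.10, limma adjusted p = 0.00249), and was lost without RORgt-Tbet-KO replicate 1 (limma adjusted p = 0.158). At Tbx21, none of 3 peaks was called, and the peak at chr11:97112532-97113091 had 6.57, 6.34 and 5.73 in RORgt-RORa-KO, against 6.69 and 6.92 in RORgt-Tbet-KO.

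Of 72 peaks near 20 type 1 cytokine and signalling genes, 10 were higher and 3 lower (18.1%, set beside 7.54% of all peaks). The called peaks lay at 9 of the 20 genes (45%, set beside 13.0% of all genes with a peak). Among the higher ones were peaks at Il12rb2, Ifng and Cxcr3. Il12rb2, which encodes the signalling chain of the IL-12 receptor, had the widest called difference of the list. Its peak at chr6:67347988-67348479, inside the gene, held 7.48, 7.86 and 7.42 log2 scaled reads in RORgt-RORa-KO, against 4.16 and 4.50 in RORgt-Tbet-KO. The groups did not overlap, and the difference was 3.26 ± 0.28 (SE; limma adjusted p = 1.9e-08). RORgt-KO libraries stood at 6.99 and 6.90 there and Control libraries between 4.48 and 4.69. The Ifng peak at chr10:118440597-118441155 covers the start of the gene for IFN-γ, the hallmark type 1 cytokine. It held 6.51, 6.77 and 6.81 in RORgt-RORa-KO, against 5.04 and 4.39 in RORgt-Tbet-KO (difference 1.98 ± 0.30, limma adjusted p = 5.06e-05). The 3 other Ifng peaks were not called, with differences of 0.19, 0.51 and 1.25. Cxcr3, the receptor for interferon-induced chemokines, had a peak 3033 bp from the gene at 7.47, 7.87 and 7.71 in RORgt-RORa-KO, against 5.37 and 5.30 in RORgt-Tbet-KO (difference 2.35 ± 0.23, limma adjusted p = 7.4e-08). These Il12rb2, Ifng and Cxcr3 calls were made under all 17 alternatives.

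Ifngr1, Irf1 and Stat4 also had higher peaks only, Il12rb1 and Il2rb lower peaks only, and Irf8 both. Il2rb encodes the shared chain of the IL-2 and IL-15 receptors, and its peak at chr15:78493406-78494120 had 7.72, 7.45 and 8.39 in RORgt-RORa-KO, against 8.74 and 8.98 in RORgt-Tbet-KO (difference -1.01, limma adjusted p = 0.00242). That Il2rb call was lost without RORgt-Tbet-KO replicate 2 (limma adjusted p = 0.0907), with RORgt-RORa-KO replicate 3 alone (limma adjusted p = 0.358) and with depth as a covariate (limma adjusted p = 0.241). The median difference over the 72 peaks was 0.02. The type 1 list had 5 higher and 1 lower peaks without RORgt-Tbet-KO replicate 1, 4 and 0 without RORgt-Tbet-KO replicate 2, and 7 and 7 without RORgt-RORa-KO replicate 3. Eomes, the T-box factor of natural killer cells, had 1 peak, at 5.34, 5.07 and 5.37 in RORgt-RORa-KO, against 5.75 and 5.72 in RORgt-Tbet-KO (limma adjusted p = 0.421).

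**Figure D1:**
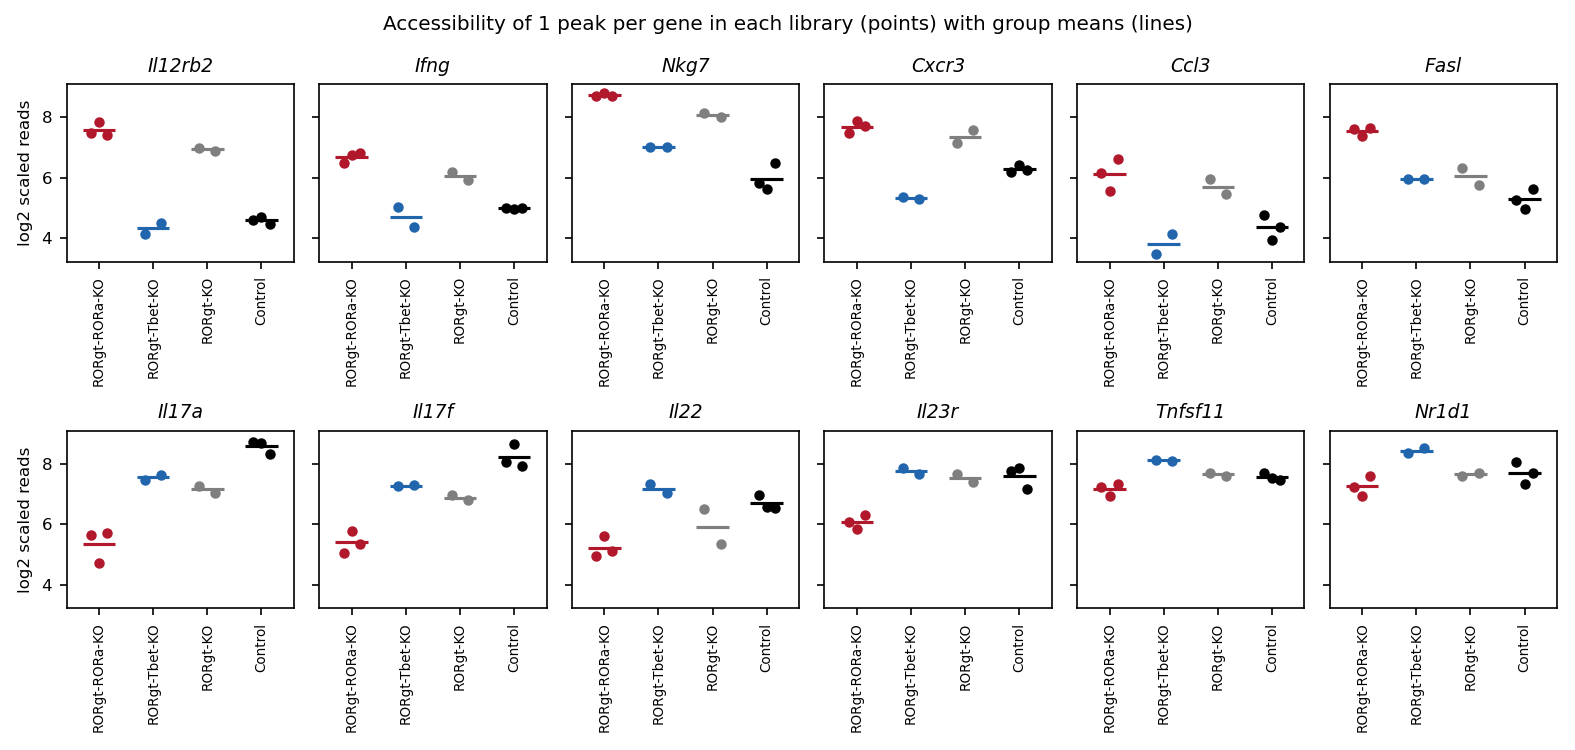
Accessibility in log2 scaled reads (vertical axis, not starting at 0) of 1 peak per gene, with each library as a point and each group mean as a line, for RORgt-RORa-KO, RORgt-Tbet-KO, RORgt-KO and Control. In the upper row every RORgt-RORa-KO point lies above every RORgt-Tbet-KO point, as at Il12rb2 (means of 7.59 in RORgt-RORa-KO and 4.33 in RORgt-Tbet-KO), and in the lower row every one lies below, as at Il17a (means of 5.36 in RORgt-RORa-KO and 7.56 in RORgt-Tbet-KO).

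Cytotoxic effector genes were more open in RORgt-RORa-KO at 10 of 44 peaks and less open at 1 (25%, set beside 7.54% of all peaks). Of the 12 genes with a peak, 8 had a call (66.7%, set beside 13.0% of all genes with a peak). The peak over the start of Nkg7, which encodes a membrane protein of cytotoxic granules, held 8.72, 8.82 and 8.73 log2 scaled reads in RORgt-RORa-KO, against 7.03 and 7.03 in RORgt-Tbet-KO. The libraries of each genotype agreed closely, and the Nkg7 difference was 1.72 ± 0.22 (limma adjusted p = 3.25e-06). Control libraries held 5.83, 5.62 and 6.48, below both. A peak 5149 bp from Fasl, the gene of the death ligand of CD95, held 7.61, 7.39 and 7.66 in RORgt-RORa-KO, against 5.98 and 5.95 in RORgt-Tbet-KO (difference 1.59 ± 0.26, limma adjusted p = 0.000166). A peak inside Tnfsf10, which encodes the death ligand TRAIL, held 5.73, 6.07 and 5.49 in RORgt-RORa-KO, against 2.72 and 3.45 in RORgt-Tbet-KO (difference 2.68 ± 0.43, limma adjusted p = 0.000107). A peak 2725 bp from Slamf7, a receptor of natural killer cells, differed by 1.85 ± 0.26 (limma adjusted p = 2.31e-05). The calls at Nkg7, Fasl, Tnfsf10 and Slamf7 were made under all 17 alternatives.

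Prf1, which encodes the pore protein perforin, was higher over its start at 7.92, 7.94 and 7.74 in RORgt-RORa-KO, against 6.96 and 6.60 in RORgt-Tbet-KO (limma adjusted p = 0.00222), a call lost without RORgt-Tbet-KO replicate 2 (limma adjusted p = 0.111), with RORgt-RORa-KO replicate 3 alone and with depth as a covariate. The Prf1 peak 1230 bp from the gene had a difference of -0.55 and was not called. Crtam and Serpinb9 also had higher peaks only, and Srgn, which encodes the granule proteoglycan serglycin, had the lower peak. None of the 3 peaks of Gzmb, the granzyme B gene, was called, with differences between -0.62 and 0.52. The list median was 0.40, and it lay above the RORgt-Tbet-KO mean by 0.37, 0.16 and 0.37 in the RORgt-RORa-KO libraries. Without RORgt-Tbet-KO replicate 1 the list had 6 higher and 1 lower peaks, and without replicate 2 it had 5 and 0.

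The chemokine genes of type 1 cells had the highest share of called peaks among the lists, at 10 higher and 1 lower of 25 peaks. That was 44% of their peaks, set beside 7.54% of all peaks. Ccl3 and Ccl4, which encode inflammatory chemokines, lie side by side, and 5 neighbouring called peaks in 33.9 kb (chr11:83628813-83662719) were all higher, with a median difference of 2.73. The Ccl3 peak at chr11:83640196-83640589 held 6.16, 5.57 and 6.64 log2 scaled reads in RORgt-RORa-KO, against 3.50 and 4.14 in RORgt-Tbet-KO (difference 2.31 ± 0.40, limma adjusted p = 0.000248). The Ccl4 peak at chr11:83662124-83662719 held 6.04, 5.63 and 6.18 in RORgt-RORa-KO, against 2.23 and 2.91 in RORgt-Tbet-KO (difference 3.37 ± 0.72, limma adjusted p = 0.0026). The RORgt-Tbet-KO libraries had 5 and 9 reads there, and the Ccl4 call was lost without replicate 1 of that group (limma adjusted p = 0.0566), with RORgt-RORa-KO replicate 3 alone (limma adjusted p = 0.088) and with depth as a covariate (limma adjusted p = 0.0698). Of the other 3 called peaks in the run, the one at 83628813 was lost without RORgt-Tbet-KO replicate 1 (limma adjusted p = 0.0646), the one over the Ccl3 start without any 1 library other than RORgt-RORa-KO replicate 2 (limma adjusted p between 0.0735 and 0.171), and the one at 83654598 likewise (limma adjusted p between 0.0514 and 0.465). A peak 30438 bp from Xcl1, whose product draws in cross-presenting dendritic cells, held 8.18, 7.90 and 8.07 in RORgt-RORa-KO, against 6.64 and 6.82 in RORgt-Tbet-KO (difference 1.32 ± 0.20, limma adjusted p = 5.56e-05).

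The Ccl3 call at chr11:83640196-83640589 and the Xcl1 call were made under all 17 alternatives. Ccl5 also had higher peaks only. Cxcl9, an interferon-induced ligand of CXCR3, had the lower peak, over its start (difference -0.74, limma adjusted p = 0.0302), and 8 of 17 alternatives lost that call, among them the block, equal depth and leaving out RORgt-RORa-KO replicate 1 or either RORgt-Tbet-KO library (limma adjusted p = 0.101, 0.304 and 0.167 in that order). The median over the chemokine list was 0.82, and the 3 RORgt-RORa-KO libraries lay 0.62, 0.76 and 1.01 above the RORgt-Tbet-KO mean. Without RORgt-Tbet-KO replicate 1 the list had 3 higher and 0 lower peaks, and without RORgt-Tbet-KO replicate 2 it had 6 and 0. Without RORgt-RORa-KO replicate 1 it had 6 higher and 0 lower peaks, and without RORgt-RORa-KO replicate 3 it had 7 and 4.

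Natural killer receptor genes were higher at 11 of 84 peaks and lower at 1 (14.3%, set beside 7.54% of all peaks). Cd226 and Tigit, an activating and an inhibitory receptor for the same nectin-family ligands, were both more open in RORgt-RORa-KO. The Cd226 peak held 6.32, 6.24 and 5.37 log2 scaled reads in RORgt-RORa-KO, against 3.61 and 3.45 in RORgt-Tbet-KO (difference 2.45 ± 0.37, limma adjusted p = 4.08e-05). The Tigit peak 24972 bp from the gene held between 8.80 and 9.10 in RORgt-RORa-KO, against 8.04 and 8.04 in RORgt-Tbet-KO (difference 0.93 ± 0.17, limma adjusted p = 0.000619). Itga1 encodes CD49a, an integrin of tissue-resident type 1 cells, and its peak differed by 1.53 ± 0.25 (limma adjusted p = 0.000118). Klrc1 went the other way, at 5.13, 5.86 and 5.30 in RORgt-RORa-KO, against 6.91 and 6.75 in RORgt-Tbet-KO (difference -1.40 ± 0.24, limma adjusted p = 0.000218). Klrc1 encodes the inhibitory receptor NKG2A, and Control libraries stood highest there, between 8.17 and 8.65.

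These Cd226, Tigit, Itga1 and Klrc1 calls were made under all 17 alternatives. Klra3, Klrd1, Klrg1 and Ncr1 had higher peaks only. The peak over the start of Ncr1, which encodes NKp46, held 7.61, 7.55 and 7.33 in RORgt-RORa-KO, against 6.67 and 6.59 in RORgt-Tbet-KO (limma adjusted p = 0.00933), and was lost without RORgt-Tbet-KO replicate 1 (limma adjusted p = 0.0931) or 2 (limma adjusted p = 0.138), with RORgt-RORa-KO replicate 3 alone and with depth as a covariate. Klrb1c, the NK1.1 gene, had 7 peaks and none called, with differences between -0.46 and 0.26. The natural killer receptor list had 6 higher and 1 lower peaks without RORgt-Tbet-KO replicate 1 and 4 and 1 with RORgt-RORa-KO replicate 3 alone.

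Of the type 3 cytokine genes, Il17a, Il17f and Il22 had lower peaks in RORgt-RORa-KO, and Csf2 had peaks called both ways. Il17a and Il17f, neighbours on chromosome 1, had 5 called peaks out of 8, all lower. The Il17a peak at chr1:20740387-20740965, 5891 bp from the gene, held 5.65, 4.73 and 5.70 log2 scaled reads in RORgt-RORa-KO, against 7.48 and 7.64 in RORgt-Tbet-KO (difference -2.20 ± 0.25, limma adjusted p = 5.88e-07). RORgt-KO libraries held 7.28 and 7.04 and Control libraries 8.73, 8.69 and 8.34, so the lowest levels were in RORgt-RORa-KO. The Il17f peak at chr1:20759576-20760222 held 5.07, 5.77 and 5.37 in RORgt-RORa-KO, against 7.28 and 7.29 in RORgt-Tbet-KO (difference -1.88 ± 0.24, limma adjusted p = 4.5e-06). The peak over the Il17f start held 4.39, 4.52 and 4.84 in RORgt-RORa-KO, against 6.29 and 6.33 in RORgt-Tbet-KO (difference -1.72 ± 0.27, limma adjusted p = 6.5e-05). The peak over the start of Il22, the gene of the epithelial barrier cytokine, held 4.94, 5.63 and 5.13 in RORgt-RORa-KO, against 7.32 and 7.03 in RORgt-Tbet-KO (difference -1.94 ± 0.30, limma adjusted p = 6.48e-05).

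The Il17a peak at chr1:20740387-20740965, both Il17f peaks and the Il22 peak were called under all 17 alternatives. The Il17a peak at chr1:20725581-20725959 was also lower (difference -1.96, limma adjusted p = 0.0068), a call lost without RORgt-Tbet-KO replicate 1 (limma adjusted p = 0.353). The Il17a peak farthest from the gene, 44632 bp away, had a difference of 1.00 and was not called, with 4.19, 3.82 and 3.54 in RORgt-RORa-KO, against 2.50 and 3.20 in RORgt-Tbet-KO. The other 3 Il22 peaks had differences of -0.84, -0.59 and -2.07 and were not called.

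Il23r encodes the receptor chain for IL-23 and lies next to Il12rb2. Peaks in this stretch changed in both directions. The peak over the start of Il23r held 6.07, 5.86 and 6.30 log2 scaled reads in RORgt-RORa-KO, against 7.85 and 7.66 in RORgt-Tbet-KO (difference -1.68 ± 0.23, limma adjusted p = 8.94e-06). The RORgt-KO libraries held 7.65 and 7.39 there and the Control libraries between 7.17 and 7.86. Beyond the far end of the gene, towards Il12rb2, the peak at chr6:67399581-67399909 held 5.57, 6.10 and 5.87 in RORgt-RORa-KO, against 2.72 and 3.75 in RORgt-Tbet-KO (difference 2.61 ± 0.45, limma adjusted p = 0.000235). Its neighbour at chr6:67415208-67415644 was also higher (difference 1.50 ± 0.33, limma adjusted p = 0.00376), a call lost without RORgt-Tbet-KO replicate 2 (limma adjusted p = 0.124), with RORgt-RORa-KO replicate 3 alone and with depth as a covariate. Together with the Il12rb2 peaks at 67373740 and 67375855 these formed a run of 4 neighbouring higher peaks over 41.9 kb. The Il12rb2 start peak in this run was lost without RORgt-RORa-KO replicate 3 (limma adjusted p = 0.129) and without RORgt-Tbet-KO replicate 1 (limma adjusted p = 0.27) or 2 (limma adjusted p = 0.146), and the peak at 67373740 without RORgt-Tbet-KO replicate 2 (limma adjusted p = 0.0706) and with RORgt-RORa-KO replicate 3 alone. A second Il23r peak inside the gene was lower (difference -0.75, limma adjusted p = 0.0249), and was lost without RORgt-RORa-KO replicate 1 (limma adjusted p = 0.138) and without RORgt-Tbet-KO replicate 1 (limma adjusted p = 0.292) or 2 (limma adjusted p = 0.152), as well as with RORgt-RORa-KO replicate 3 alone and with depth as a covariate.

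**Figure D2:**
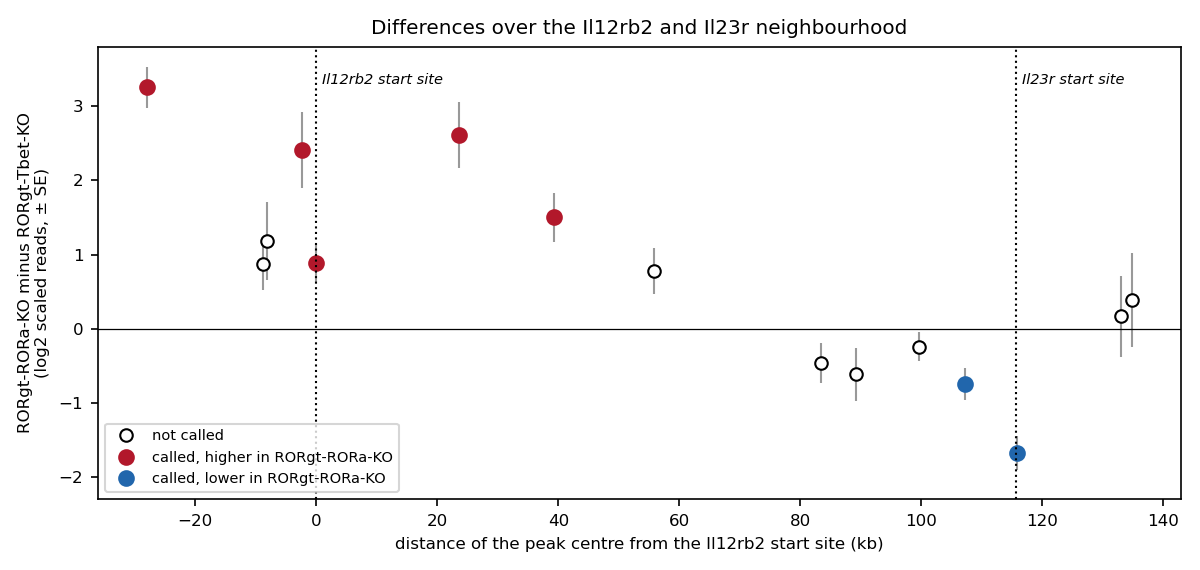
Difference between RORgt-RORa-KO and RORgt-Tbet-KO (log2 scaled reads, bars give the limma standard error) at each peak of Il12rb2 and Il23r, against the distance of the peak centre from the Il12rb2 start site in kb. Called differences are positive on the Il12rb2 side, up to 3.26, and negative at the Il23r start, at -1.68.

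Over the whole list of type 3 effector and receptor genes, 13 of 102 peaks were lower and 6 higher. That was 18.6% of their peaks, set beside 7.54% of all peaks. The called peaks lay at 11 of the 20 genes with a peak (55%, set beside 13.0% of all genes with a peak). Batf3, Ccl20 and Il21 also had lower peaks only, Cd93 and Il21r higher peaks only, and Csf2 and Il23r both. The median difference was -0.25, and the RORgt-RORa-KO libraries lay 0.20, 0.30 and 0.20 below the RORgt-Tbet-KO mean. Without RORgt-Tbet-KO replicate 1 the type 3 list had 8 lower and 2 higher peaks, and without RORgt-Tbet-KO replicate 2 it had 8 lower and 5 higher.

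Genes of LTi-like ILC3s, the subset that organises lymphoid tissue, were lower at 8 of 96 peaks and higher at 1. That was 9.38% of their peaks, set beside 7.54% of all peaks, and the calls below are of single loci. Tnfsf11 encodes RANKL and Tnfrsf11a its receptor RANK. The peak over the start of Tnfsf11 held 7.25, 6.93 and 7.35 log2 scaled reads in RORgt-RORa-KO, against 8.15 and 8.11 in RORgt-Tbet-KO (difference -0.95 ± 0.19, limma adjusted p = 0.00154). Of 7 Tnfrsf11a peaks 1 was called, and the median difference over the 7 was 0.34. The called peak held 3.94, 3.40 and 3.16 in RORgt-RORa-KO, against 5.44 and 4.95 in RORgt-Tbet-KO (difference -1.69 ± 0.39, limma adjusted p = 0.00521). The Kit peak, in the gene of the stem cell factor receptor, differed by -0.74 ± 0.17 (limma adjusted p = 0.00662). None of the 3 calls stood without RORgt-Tbet-KO replicate 1 (limma adjusted p = 0.0523, 0.184 and 0.15 in that order), and the Kit call was also lost without RORgt-Tbet-KO replicate 2 (limma adjusted p = 0.0785). With RORgt-RORa-KO replicate 3 alone the limma adjusted p was 0.0589 at Tnfsf11 and 0.18 at Kit, and with depth as a covariate it was 0.0711 and 0.105 in that order. Ccr6, the chemokine receptor that marks these cells, had 6 peaks with none called and differences between -0.71 and 0.02. Cd4 had 1 peak, with a difference of 0.01 (limma adjusted p = 0.993). The LTi-like list lay 0.33, 0.35 and 0.10 below the RORgt-Tbet-KO mean in RORgt-RORa-KO replicates 1, 2 and 3. With replicate 3 alone 1 lower and 0 higher peaks were called, and with reads thinned to equal depth 7 lower and 2 higher. Without RORgt-Tbet-KO replicate 1 it had 2 lower and 0 higher peaks, without RORgt-Tbet-KO replicate 2 it had 3 and 0, and without RORgt-RORa-KO replicate 3 it had 14 and 0.

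**Figure D3:**
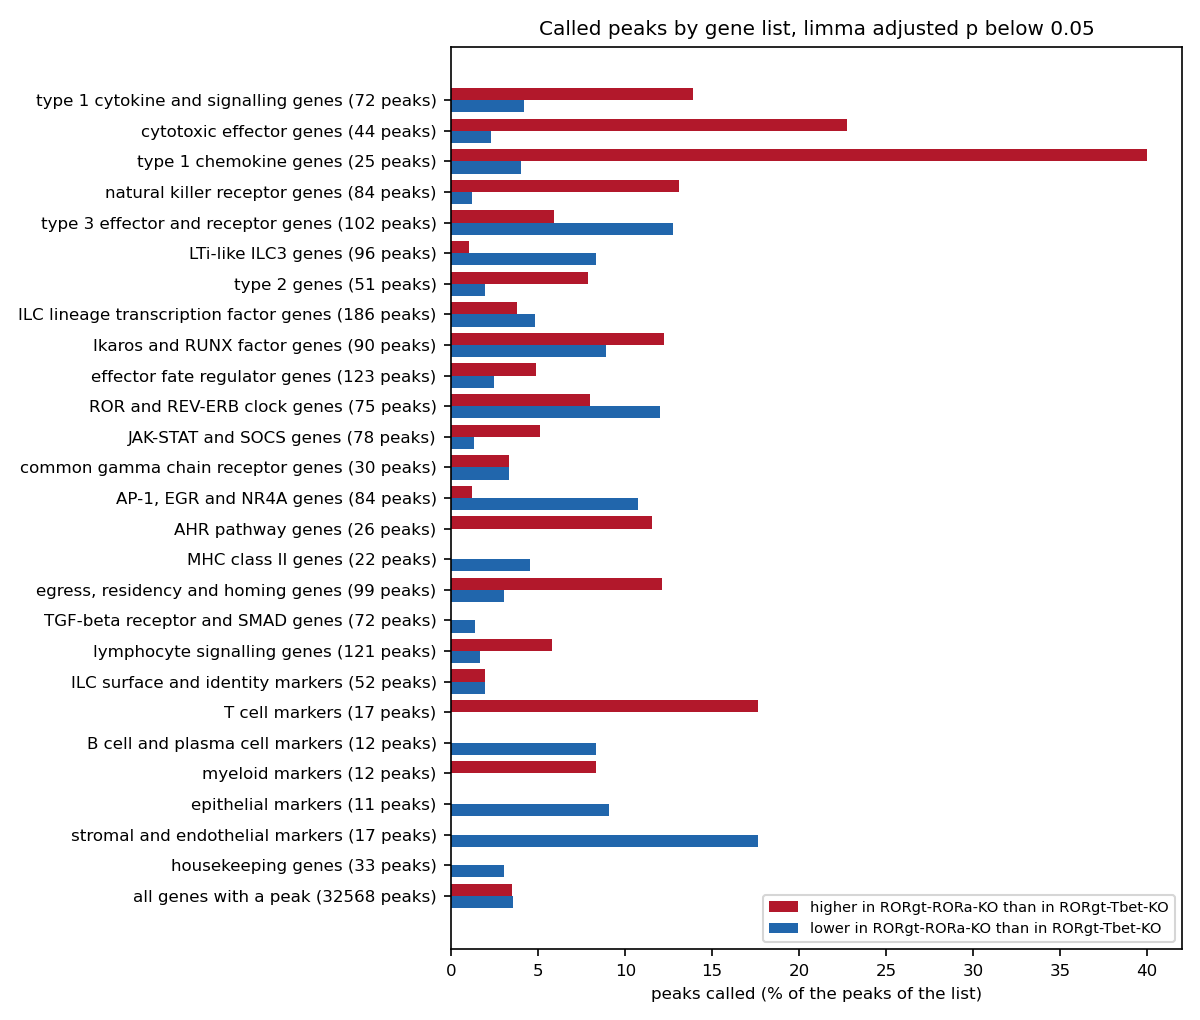
Share of the peaks of each gene list (horizontal axis, %) that were called higher (red) or lower (blue) in RORgt-RORa-KO than in RORgt-Tbet-KO, with the number of peaks in brackets and all peaks that have a gene in the last row. Type 1 chemokine genes reached 10 higher of 25 peaks and type 3 genes 13 lower of 102.

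Type 2 genes had 4 higher peaks and 1 lower of 51 (9.80%, set beside 7.54% of all peaks), and the calls below are of single loci. Calca, which encodes the peptide CGRP that ILC2s make, had a peak 8821 bp away at 6.73, 6.75 and 6.82 log2 scaled reads in RORgt-RORa-KO, against 3.72 and 4.55 in RORgt-Tbet-KO (difference 2.63 ± 0.33, limma adjusted p = 2.66e-06). Il1rl1, the IL-33 receptor gene, had a peak at 5.81, 6.10 and 5.95 in RORgt-RORa-KO, against 3.91 and 3.83 in RORgt-Tbet-KO (difference 2.08 ± 0.38, limma adjusted p = 0.00053). Both calls were made under all 17 alternatives. Gata3, which encodes a factor needed by ILC2s and other ILCs, had a higher peak (difference 1.19, limma adjusted p = 0.00537) that was lost without RORgt-Tbet-KO replicate 1 (limma adjusted p = 0.223), with RORgt-RORa-KO replicate 3 alone (limma adjusted p = 0.305) and with depth as a covariate (limma adjusted p = 0.0937). The 7 Gata3 peaks, of which 1 was called, had a median difference of -0.30. The list median was 0.03. The type 2 list had 2 higher and 0 lower peaks without RORgt-Tbet-KO replicate 1, 3 and 0 without RORgt-Tbet-KO replicate 2 or RORgt-RORa-KO replicate 1, and 4 and 5 without RORgt-RORa-KO replicate 3.

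Among genes of ILC lineage transcription factors, 7 of 186 peaks were higher and 9 lower (8.60%, set beside 7.54% of all peaks), and the calls below are of single loci. Ets1, an ETS factor needed for natural killer cells, had a peak at chr9:32594282-32594670 with 7.21, 7.21 and 7.15 log2 scaled reads in RORgt-RORa-KO, against 4.56 and 5.24 in RORgt-Tbet-KO (difference 2.29 ± 0.29, limma adjusted p = 2.91e-06). Of the HMG-box factor genes, Tox2 had 2 lower peaks of 8, and Tox had 2 lower and 1 higher of 22. The called peak of smallest p at each gene is given. The Tox2 peak held 5.39, 5.40 and 5.60 in RORgt-RORa-KO, against 7.30 and 7.15 in RORgt-Tbet-KO (difference -1.77 ± 0.25, limma adjusted p = 1.93e-05). The Tox peak held 3.29, 4.82 and 2.84 in RORgt-RORa-KO, against 5.64 and 5.87 in RORgt-Tbet-KO (difference -2.11 ± 0.41, limma adjusted p = 0.000929). Zeb2, a zinc-finger factor of terminal differentiation in lymphocytes, had a peak at 6.63, 6.84 and 6.84 in RORgt-RORa-KO, against 8.09 and 7.99 in RORgt-Tbet-KO (difference -1.27 ± 0.19, limma adjusted p = 5.69e-05), with Control libraries highest at 8.68 to 9.27. The Ets1, Tox2, Tox and Zeb2 calls were made under all 17 alternatives.

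Tcf7, the gene of TCF-1, had 7 peaks and Id2 6, with none called at either gene. Zbtb16, which encodes PLZF, had 1 lower peak of 14 (difference -1.49, limma adjusted p = 0.0188), which was lost without RORgt-RORa-KO replicate 3 (limma adjusted p = 0.0598) and without RORgt-Tbet-KO replicate 1 (limma adjusted p = 0.0811) or 2 (limma adjusted p = 0.323). The lineage factor list had 1 higher and 5 lower peaks without RORgt-Tbet-KO replicate 1, 4 and 3 without RORgt-Tbet-KO replicate 2, 4 and 9 without RORgt-RORa-KO replicate 1, and 8 and 18 without RORgt-RORa-KO replicate 3.

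Ikaros and RUNX factor genes had 11 higher and 8 lower of 90 peaks (21.1%, set beside 7.54% of all peaks). Ikzf2, which encodes Helios, a factor of ILC1s and regulatory T cells, had 5 higher and no lower peaks of 21. Its strongest peak held 6.57, 7.43 and 6.61 log2 scaled reads in RORgt-RORa-KO, against 4.61 and 4.33 in RORgt-Tbet-KO (difference 2.40 ± 0.28, limma adjusted p = 1.37e-06). Ikzf3, which encodes the related factor Aiolos, had lower peaks only, with 5.98, 5.52 and 5.68 in RORgt-RORa-KO, against 6.90 and 7.06 in RORgt-Tbet-KO at the strongest (difference -1.26 ± 0.24, limma adjusted p = 0.000696). A Runx2 peak was higher (difference 1.93 ± 0.29, limma adjusted p = 3.5e-05), while Runx1 and Runx2 each had peaks called in both directions. The strongest calls at Ikzf2, Ikzf3 and Runx2 were made under all 17 alternatives. The Ikaros and RUNX list had 4 higher and 2 lower peaks without RORgt-Tbet-KO replicate 1, 6 and 2 without RORgt-Tbet-KO replicate 2, 5 and 6 and 7 and 5 without RORgt-RORa-KO replicates 1 and 2 in that order, and 11 and 13 without RORgt-RORa-KO replicate 3.

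Genes that set effector fate were called at 6 higher and 3 lower of 123 peaks (7.32%), a share near that of all peaks (7.54%). A peak inside Bach2, which encodes a repressor of effector genes in lymphocytes, held 2.48, 3.14 and 2.43 log2 scaled reads in RORgt-RORa-KO, against 5.04 and 4.99 in RORgt-Tbet-KO (difference -2.33 ± 0.44, limma adjusted p = 0.000781), and was called under all 17 alternatives. The RORgt-RORa-KO libraries had 4, 5 and 6 reads at this Bach2 peak. Of 18 Bach2 peaks, 1 was lower and 1 higher. Ahr, the gene of the aryl hydrocarbon receptor on which gut ILC3s depend, had a higher peak at 5.84, 6.77 and 5.93 in RORgt-RORa-KO, against 4.16 and 4.79 in RORgt-Tbet-KO (difference 1.71 ± 0.37, limma adjusted p = 0.00345). The Ahr call was lost without RORgt-Tbet-KO replicate 1 (limma adjusted p = 0.13), with RORgt-RORa-KO replicate 3 alone (limma adjusted p = 0.151) and with depth as a covariate (limma adjusted p = 0.0726). The effector fate list had 0 higher and 1 lower peaks without RORgt-Tbet-KO replicate 1 and 1 and 1 without RORgt-Tbet-KO replicate 2. It had 4 higher and 1 lower peaks without RORgt-RORa-KO replicate 1, 3 and 4 without replicate 2, and 6 and 6 without replicate 3.

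The ROR and REV-ERB clock genes had 6 higher and 9 lower of 75 peaks (20%, set beside 7.54% of all peaks). Nr1d1 encodes REV-ERBα, a repressor that binds the same DNA element as the ROR receptors. All 4 of its peaks were lower in RORgt-RORa-KO, with differences between -0.82 and -1.19. The strongest held 7.25, 6.95 and 7.60 log2 scaled reads in RORgt-RORa-KO, against 8.35 and 8.53 in RORgt-Tbet-KO (difference -1.17 ± 0.22, limma adjusted p = 0.000551). This Nr1d1 call held without any 1 library. It was lost with depth as a covariate and with RORgt-RORa-KO replicate 3 alone (largest limma adjusted p = 0.0835), and the other 3 Nr1d1 peaks were lost without RORgt-Tbet-KO replicate 2 (limma adjusted p = 0.201, 0.287 and 0.339). Those at 98772666 and 98775359, were also lost without RORgt-RORa-KO replicate 2 (limma adjusted p = 0.0693 and 0.0535) and without RORgt-Tbet-KO replicate 1 (limma adjusted p = 0.0655 and 0.0984). Cry1, a repressor of the clock, had a lower peak (difference -2.28 ± 0.45, limma adjusted p = 0.00115), and Tef, a clock output factor, a higher one (difference 2.56 ± 0.51, limma adjusted p = 0.00122). Without RORgt-Tbet-KO replicate 1 their adjusted p rose to 0.0531 at Cry1 and 0.0508 at Tef. Bhlhe40, a clock repressor also used by T cells, had a peak at 7.29, 6.34 and 7.31 in RORgt-RORa-KO, against 4.82 and 5.27 in RORgt-Tbet-KO (difference 1.94 ± 0.27, limma adjusted p = 1.19e-05), called under all 17 alternatives. Of 9 Bhlhe40 peaks, 2 were higher and 1 lower. Arntl, which encodes the clock activator BMAL1, had 4 peaks and none called. The clock list had 2 higher and 3 lower peaks without RORgt-Tbet-KO replicate 1, 5 and 3 without RORgt-Tbet-KO replicate 2, and 6 and 16 without RORgt-RORa-KO replicate 3.

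Immediate early genes of the AP-1, EGR and NR4A families were lower at 9 of 84 peaks and higher at 1. That was 11.9% of their peaks, set beside 7.54% of all peaks. The higher peak was near Egr2, a factor induced by antigen receptor signals, at 7.89, 8.08 and 7.79 log2 scaled reads in RORgt-RORa-KO, against 6.18 and 6.07 in RORgt-Tbet-KO (difference 1.80 ± 0.24, limma adjusted p = 7.84e-06), and was called under all 17 alternatives. The peak at the Jun gene held 7.58, 7.60 and 7.59 in RORgt-RORa-KO, against 8.56 and 8.41 in RORgt-Tbet-KO (difference -0.89 ± 0.19, limma adjusted p = 0.00318), and was lost without RORgt-Tbet-KO replicate 1 (limma adjusted p = 0.0966) and with depth as a covariate (limma adjusted p = 0.0733). Atf3, Batf3, Fos, Fosb, Junb, Nr4a1 and Nr4a3 also had lower peaks only. The list lay 0.23 and 0.52 below the RORgt-Tbet-KO mean in the shallower RORgt-RORa-KO replicates 1 and 2 and 0.01 above it in replicate 3, and the part of depth in its calls was not tested. With replicate 3 alone, 1 peak was lower and 1 higher, with depth as a covariate 0 and 1, with reads thinned to equal depth 7 and 1, and without either RORgt-Tbet-KO library 1 and 1. Without RORgt-RORa-KO replicate 1 the list had 4 lower and 1 higher peaks, without RORgt-RORa-KO replicate 2 it had 4 and 2, and without RORgt-RORa-KO replicate 3 it had 19 and 1.

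Genes of egress, residency and homing had 12 higher and 3 lower of 99 peaks (15.2%, set beside 7.54% of all peaks). S1pr1, the receptor that leads lymphocytes out of tissue, had 4 higher peaks of 9. The strongest held 6.04, 6.40 and 5.20 log2 scaled reads in RORgt-RORa-KO, against 3.08 and 3.99 in RORgt-Tbet-KO (difference 2.34 ± 0.44, limma adjusted p = 0.000724), and its limma adjusted p was 0.0509 without RORgt-Tbet-KO replicate 1 and 0.194 with RORgt-RORa-KO replicate 3 alone. The other 3 higher S1pr1 peaks were lost with RORgt-RORa-KO replicate 3 alone and with depth as a covariate. Rgs2, a brake on G protein signals, had a peak at 6.01, 6.21 and 5.65 in RORgt-RORa-KO, against 3.82 and 3.20 in RORgt-Tbet-KO (difference 2.44 ± 0.38, limma adjusted p = 7.64e-05). Itgb1, the integrin β1 gene, had a peak at 6.89, 6.95 and 7.34 in RORgt-RORa-KO, against 4.91 and 5.30 in RORgt-Tbet-KO (difference 1.96 ± 0.31, limma adjusted p = 0.0001). The Rgs2 and Itgb1 calls were made under all 17 alternatives. Ccr7, which guides cells to lymph nodes, was among the genes with lower peaks. The list had 4 higher and 1 lower peaks without RORgt-Tbet-KO replicate 1, 5 and 0 without RORgt-Tbet-KO replicate 2, 10 and 9 without RORgt-RORa-KO replicate 3, and 2 and 0 with RORgt-RORa-KO replicate 3 alone.

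Apart from the marker and housekeeping lists, between 1.39% and 11.5% of peaks were called in the remaining lists, set beside 7.54% of all peaks. JAK-STAT and SOCS genes had 4 higher and 1 lower of 78 peaks, lymphocyte signalling genes 7 and 2 of 121, AHR pathway genes 3 and 0 of 26, common gamma chain receptor genes 1 and 1 of 30, TGF-beta receptor and SMAD genes 0 and 1 of 72, and MHC class II genes 0 and 1 of 22. Socs1, a feedback inhibitor of cytokine signals, had the lower JAK-STAT peak, and the kinase gene Tyk2 a higher one (difference 1.83 ± 0.35, limma adjusted p = 0.000873), which was lost without RORgt-Tbet-KO replicate 1 (limma adjusted p = 0.0862). The Socs1 call was lost under 5 of 17 alternatives. Over all 26 lists, 117 of 335 genes with a peak had a call (34.9%), set beside 13.0% of all genes with a peak. The lists were written with earlier results of these data known, so this share and those of the single lists are descriptions.

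Genes outside the lists were among those with the most called peaks or the widest differences, beside listed genes such as Ikzf2 and Il12rb2. Inpp4b, which encodes a phosphoinositide phosphatase, had 6 higher and no lower peaks of 13. Its strongest held 7.93, 7.90 and 7.57 log2 scaled reads in RORgt-RORa-KO, against 5.04 and 5.53 in RORgt-Tbet-KO (difference 2.51 ± 0.23, limma adjusted p = 2.25e-08). Itpr1, the gene of an IP3-gated calcium channel, had 5 higher peaks of 27, and the strongest held 8.32, 8.42 and 8.76 in RORgt-RORa-KO, against 6.45 and 6.17 in RORgt-Tbet-KO (difference 2.19 ± 0.21, limma adjusted p = 5.19e-08). Pdzd2 had 5 higher peaks of 16, Plek 4 of 5, Gramd3 4 of 6 and Rai14 4 of 7. The strongest calls at Inpp4b, Itpr1, Pdzd2, Plek and Gramd3 were made under all 17 alternatives, and that at Rai14 was lost with RORgt-RORa-KO replicate 3 alone.

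Single peaks inside Atp10a, a lipid flippase gene, and inside Stim2, the gene of a calcium sensor of the endoplasmic reticulum, were among the widest higher differences. The Atp10a peak held 7.14, 8.01 and 6.95 in RORgt-RORa-KO, against 3.82 and 3.91 in RORgt-Tbet-KO (difference 3.50 ± 0.31, limma adjusted p = 2.25e-08). The Stim2 peak held 6.69, 7.61 and 6.64 in RORgt-RORa-KO, against 3.82 and 3.45 in RORgt-Tbet-KO (difference 3.35 ± 0.37, limma adjusted p = 5.88e-07), with Control libraries at 3.18, 3.96 and 3.48 and RORgt-KO libraries at 6.87 and 6.46. Ank3, which encodes ankyrin G, had a peak at 6.01, 6.21 and 6.37 in RORgt-RORa-KO, against 2.23 and 3.07 in RORgt-Tbet-KO (difference 3.54 ± 0.45, limma adjusted p = 3.25e-06). The calls at Atp10a, Stim2 and Ank3 were made under all 17 alternatives.

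The widest fitted difference was at a peak 48532 bp from Hand2, which had 33, 61 and 75 reads in RORgt-RORa-KO, against 3 and 1 reads in RORgt-Tbet-KO (limma adjusted p = 9.17e-08), and no fold is given against so few reads. Another Hand2 peak, 38969 bp from the gene, was lower, at 2.07, 3.14 and 3.01 in RORgt-RORa-KO, against 5.53 and 4.87 in RORgt-Tbet-KO (difference -2.46 ± 0.51, limma adjusted p = 0.00219), a call lost without RORgt-Tbet-KO replicate 1 (limma adjusted p = 0.135). Further peaks among the 10 widest higher ones, near Elobl, Coil, Zfp438 and Hsd11b1, had between 3 and 14 reads in the RORgt-Tbet-KO libraries.

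Among genes with lower peaks, Ccdc88c had 5 of 16, Crispld2 4 of 8, Mast4 4 of 21, Lpp 4 of 29 and Gtsf1l 3 of 3. Ncoa7 and Arhgap26 each had 4 lower peaks and 1 higher, of 16 and 30. Ncoa7, a coactivator of nuclear receptors, had its strongest peak at 7.24, 7.71 and 7.48 log2 scaled reads in RORgt-RORa-KO, against 9.17 and 9.17 in RORgt-Tbet-KO (difference -1.69 ± 0.19, limma adjusted p = 5.31e-07). A Smim20 peak 24734 bp from the gene held 4.57, 4.40 and 3.65 in RORgt-RORa-KO, against 7.04 and 6.68 in RORgt-Tbet-KO (difference -2.65 ± 0.32, limma adjusted p = 1.63e-06), and a peak in Rprd1b held 5.34, 2.82 and 4.93 in RORgt-RORa-KO, against 6.90 and 7.25 in RORgt-Tbet-KO (difference -2.71 ± 0.43, limma adjusted p = 8.32e-05). These Ncoa7, Smim20 and Rprd1b calls were made under all 17 alternatives, as were those of the strongest peaks at Ccdc88c, Crispld2 and Arhgap26. The strongest calls at Mast4 and Gtsf1l were each lost under 4 of 17, among them equal depth and leaving out either RORgt-Tbet-KO library. That at Lpp was lost under 2 of 17, depth as a covariate and leaving out RORgt-Tbet-KO replicate 1. The lowest difference, -3.11 at Dynlt1b, is uncertain: the gene has near-identical copies beside it, RORgt-RORa-KO replicate 2 had 0 reads at the peak while replicates 1 and 3 had 11 and 55, and without replicate 2 the call was lost (limma adjusted p = 0.125).

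Called peaks were sparse at gene ends and more frequent away from genes. Within 1 kb of either end of a protein-coding gene, 2.07% of 10847 peaks were called, 0.867% higher and 1.21% lower. Inside genes the share was 9.10% of 14149, at 1 to 50 kb from a gene 10.1% of 7572, and over 50 kb from any gene 12.3% of 3683. Gene ends held 6.80% of the higher and 9.70% of the lower peaks, against 29.9% of all peaks. Reads moved with place: the median peak had 110.9 reads per library at gene ends and 41.3, 37.2 and 32.3 at the other places in that order, and the median standard error ran from 0.23 at gene ends to 0.39 beyond 50 kb. The peaks with the most reads, 118.5 or more per library, were called at 7.91%, and those of 25 reads or fewer at 3.94%. Those of 25.1 to 51.7 reads were called at 8.13% and those of 51.8 to 118.4 at 10.2%. The share thus did not rise steadily with reads. The part of reads in the shares was not tested. By chromosome the called share ran from 3.72% on X to 9.18% on chromosome 18.

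**Figure D4:**
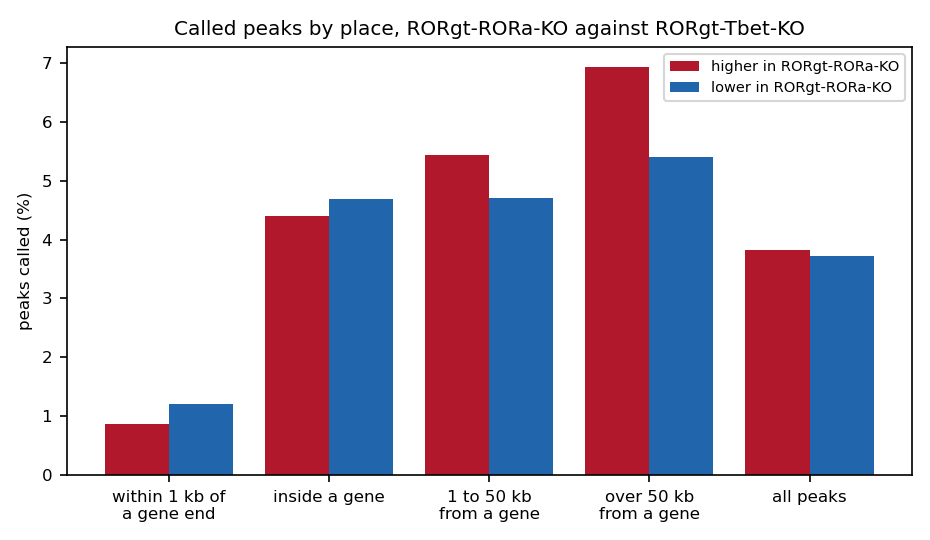
Share of peaks called (vertical axis, %) higher (red) or lower (blue) in RORgt-RORa-KO than in RORgt-Tbet-KO, by the place of the peak relative to protein-coding genes. Peaks within 1 kb of a gene end were called at 0.867% and 1.21%, and those over 50 kb from a gene at 6.92% and 5.40%.

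Of 32585 promoter windows, 82 lay under a higher peak and 116 under a lower peak. The T-box motif AGGTGTGA, counted on both strands, was in 7 of the 82 windows under higher peaks (8.54%), against 1 of 116 under lower peaks (0.862%), 0.840% of all windows under a peak and 1.28% of all windows. Nkg7, shown above, was 1 of the 7, with the motif at base -14. The others under higher peaks were Dhrs9, Pglyrp1, Samd3 and the predicted genes 4930428O21Rik, Gm30318 and Gm31871. The window of Gm31871, chr9:32594246-32594545, overlaps the Ets1 peak described above. The ROR motif AGGTCA was in 14.6% of windows under higher peaks, 14.7% under lower peaks, 11.4% under any peak and 16.2% of all windows. Il23r held it at bases -229 and -66, Il17f at -58 and Ccl3 at -186, and Ifng at base 17 after the start. The AP-1 motif TGANTCA was in 9 of the 82 windows under higher peaks and 15 of the 116 under lower peaks. Its share was 4.63% under any peak and 7.85% of all windows. The RUNX motif TGTGGT was in 23.2% and 21.6% in the same order, against 12.6% under any peak and 16.6% of all windows. The capitalised motifs do not overlap in the sequences shown, and a match is a description of the letters and not a binding site.

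The other genotypes, whose values did not enter the difference, placed the called peaks. Over the 1383 higher peaks the median level was 6.37, 6.57 and 6.18 log2 scaled reads in RORgt-RORa-KO and 4.77 and 4.83 in RORgt-Tbet-KO, which chose the peaks, and it was 5.96 and 5.78 in RORgt-KO and between 5.28 and 5.42 in Control. The RORgt-KO mean lay between the means of the compared genotypes at 1184 of these peaks, set beside 13919 of all 36251. The gap between the compared genotypes chose these peaks and leaves more room for a mean in between, so this count is a description. The RORgt-KO mean was nearer to RORgt-RORa-KO at 72.9% of the higher peaks, set beside 53.3% of all peaks. Over the 1350 lower peaks the median was 5.98, 5.91 and 5.97 in RORgt-RORa-KO and 7.10 and 7.10 in RORgt-Tbet-KO, with 6.66 and 6.65 in RORgt-KO and 7.05 to 7.23 in Control. The RORgt-KO mean was nearer to RORgt-Tbet-KO at 61.3% of the lower peaks, set beside 46.7% of all peaks. Control was nearer to RORgt-Tbet-KO at 67.8% of the higher and 73.6% of the lower peaks, set beside 50.8% of all peaks. Its mean stood above both at 642 of the 1350 lower peaks, set beside 13624 of all 36251.

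**Figure D5:**
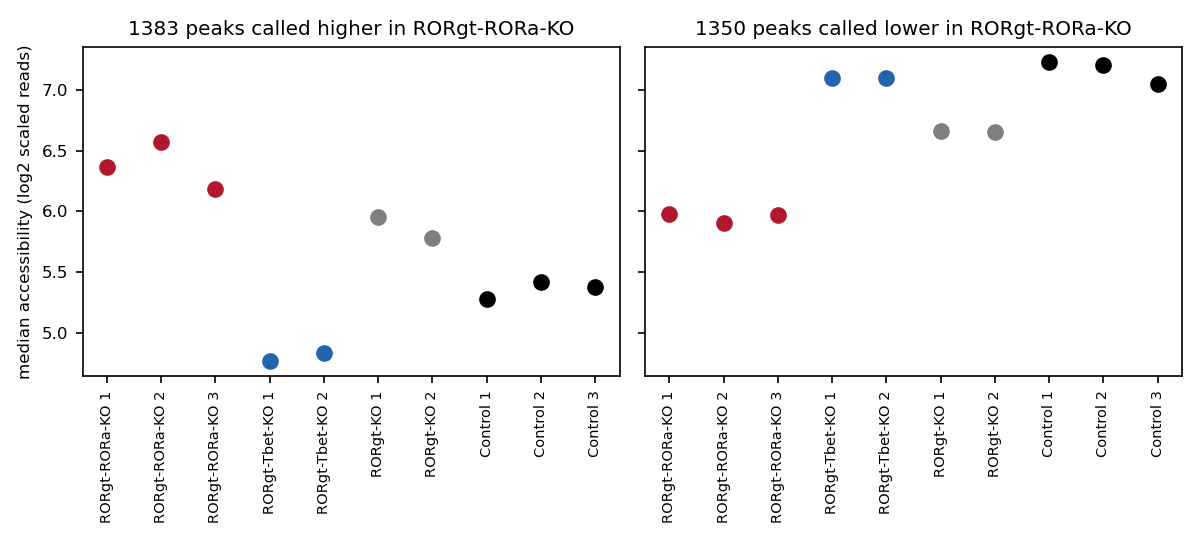
Median accessibility (log2 scaled reads, vertical axis not starting at 0) over the 1383 higher and the 1350 lower peaks in each library. The RORgt-RORa-KO and RORgt-Tbet-KO points are apart because they chose the peaks, and this gap leaves room for points in between. The RORgt-KO points fall there, at 5.96 and 5.78 on the left and 6.66 and 6.65 on the right.

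Markers of ILCs and of other cells were read from their peaks. All 10 ILC surface and identity genes had peaks, with 1 higher peak, near Ptprc, and 1 lower, at Kit, of 52. Their peaks held 0.150% to 0.164% of all scaled reads in RORgt-RORa-KO and 0.166% to 0.169% in RORgt-Tbet-KO. Of 12 T cell markers, 6 had a peak. Of their 17 peaks, 3 were higher (17.6%, set beside 7.54% of all peaks), at Cd40lg and Ctla4. The Cd40lg peak differed by 2.67 ± 0.43 (limma adjusted p = 0.000104). T cell marker peaks held 0.0276% to 0.0385% of scaled reads in RORgt-RORa-KO, 0.0226% to 0.0246% in RORgt-Tbet-KO, 0.0237% to 0.0285% in RORgt-KO and 0.0248% to 0.0338% in Control. Cd3d and Cd3e had 1 uncalled peak each, with differences of 0.16 and 0.23, and Cd3g, Cd8a, Cd8b1 and Foxp3 had none. B cell markers had 1 lower of 12 peaks, at Blk, with 0.0136% to 0.0171% of scaled reads in RORgt-RORa-KO and 0.0167% to 0.0200% in RORgt-Tbet-KO, and no peak at Cd79a or Ms4a1. Myeloid markers had 1 higher of 12, at Itgam, with 0.0210% to 0.0246% and 0.0190% to 0.0198% in the same order, and no peak at Csf1r or Lyz2. Epithelial markers had 1 lower of 11, with 0.0186% to 0.0202% and 0.0190% to 0.0201%, and no peak at Vil1 or Cdx1. That peak, near Krt8, a keratin gene, held 4.94, 5.68 and 4.97 in RORgt-RORa-KO, against 7.48 and 7.38 in RORgt-Tbet-KO (difference -2.23 ± 0.25, limma adjusted p = 5.84e-07). Stromal markers had 3 lower of 17 peaks (17.6%), at Lum and Pdgfrb, and no peak at Col1a1 or Dcn. Their peaks held 0.0261% to 0.0290% and 0.0315% to 0.0327% of scaled reads in the same order. The Lum call was lost under 7 of 16 alternatives and the Pdgfrb call of smallest p under 5 of 17. With reads thinned to equal depth no stromal peak was called. The calls at Blk and Itgam were lost under 2 and 1 of 17 in that order. Of these markers, 3 of 10 B cell, 7 of 11 myeloid, 6 of 11 epithelial and 5 of 10 stromal and endothelial genes had a peak. Among them were Pax5 and Ebf1, Spi1 and Cd14, Epcam and Cdh1, and Pecam1. The part of other cells in the results was not tested. Housekeeping genes had 1 lower of 33 peaks, and their median lay 0.17 and 0.23 below the RORgt-Tbet-KO mean in RORgt-RORa-KO replicates 1 and 2 and 0.02 above it in replicate 3.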

How the data were processed

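ATAC-seq libraries of 10 samples in 4 genotypes were used. The submitters' processing notes name Trim Galore 0.62, Bowtie2 2.3.5.1, SAMtools, MACS2 and the build GRCm38. The deposited values are log2 scaled reads per peak in 1 table of 36262 peaks, of which 11 on Y were left out, and the sources used here do not say how the authors scaled them. Raised to the power of 2, all non-empty values were whole multiples of 1 step per library (tolerance 0.01), which gave back the reads. The 36251 peaks had a median of 45, 37 and 67 reads in RORgt-RORa-KO and 64 and 73 in RORgt-Tbet-KO.

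The test was limma 3.58.1 (R 4.3.3), fitted to the log2 values with a trend of variance on mean, with all 4 groups in 1 fit (6 residual degrees of freedom), and Benjamini-Hochberg adjustment over all peaks; the median SE was 0.303. A peak's gene was the nearest protein-coding one of RefSeq, if within 50 kb. On simulated data with independent noise at each peak, 200 of 36251 peaks were changed. Of the 2-fold changes 23% were recovered and of the 4-fold changes 68%, with 1 false call. The fit to the real data called 2733 peaks, so these rates need not hold there. Named peaks were all those of the targeted genes, the 10 widest called differences each way whose groups did not overlap, with at least 20 reads in each library of the higher group, the called peak of smallest p for up to 4 genes of each list, and the genes with the most called peaks; peaks that describe a whole gene, and further called genes, were added after their values were seen. A few genes that this rule or the lists hold are not reported here. The comparison and the gene lists were chosen with earlier results of these data known. The labels do not say whether replicate numbers pair the libraries, and the main fit used no pairing. The correlation of deviations between RORgt-RORa-KO and RORgt-Tbet-KO libraries of the same number was -0.121 and -0.0766. The deviations of the 2 RORgt-Tbet-KO libraries mirror each other, so these values cannot show whether libraries were paired. Alternatives changed the scaling, test, pseudocount, filter, trend, weights, samples, block, depth and libraries.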

Additional observations from a re-analysis of the deposited data

How the results depend on the processing

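Of 108 called peaks of the named genes, 53 were called under every alternative that gave them a value (17, and 16 at Zfp438, which had too few reads for the 20-read minimum), and none changed direction. The main counts were 2733 called, 1383 higher and 1350 lower, with 8.23% of called peaks at gene ends. Without the mean-variance trend 1505, 891 and 614 were called, with 5.32% at gene ends. With library weights the counts were 6272, 2858 and 3414, with 15.6%. With depth as a covariate they were 1063, 486 and 577, with 5.83%. With RORgt-RORa-KO replicate 3 alone on its side they were 1077, 328 and 749, with 5.76%, so higher peaks were 30.5% of calls, against 50.6% in the main fit. With reads thinned to equal depth 2170 peaks were called, 866 of them lower. With only the compared groups in the fit 6.57% of called peaks were at gene ends, and with gene ends taken as 2 kb 11.4%. With the replicate block 3490 peaks were called, with 13.3% at gene ends. Leaving out 1 library gave 967 to 3778 called peaks, 536 to 1641 higher and 404 to 2137 lower, with 5.04% to 19.0% at gene ends. The cause of these shifts was not tested. The other counts, under equal medians, quantile normalization, voom on the recovered reads, log2 of the value plus 1 and a minimum of 20 reads, stayed within 1.5 times. The quasi-likelihood count test that had been listed was not run, because the deposited unit is log2. At 1 to 3 reads in a library, as near Hand2, levels depend on the floor for empty peaks, 0.9 of a read.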

Other observations

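The longest run of neighbouring called peaks, 11 higher peaks at chr9:2999971-3038241, lay over 50 kb from any protein-coding gene near the start of chromosome 9. Its differences were at least 0.98, with a median of 1.32. No filter for repeated sequence was applied to the peaks here, and the part of read mapping in this run was not tested. At Ccny, the gene of a membrane-bound cyclin (chr18:9487297-9505582), 6 neighbouring peaks were lower, and each fell by 0.81 to 1.40. Between Dock9 and Ubac2 (chr14:121821160-121840543), 4 neighbouring peaks were higher, with a median of 1.83. In all, 7 runs of at least 4 called peaks in 1 direction with gaps of at most 25 kb were found, 5 higher and 2 lower. These runs were listed after the calls were made, and no test was run on them.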
